A study of Danio rerio with 12 samples.

Results

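Chromatin accessibility of zebrafish endodermal cells was compared between embryos treated with retinoic acid (RA) and embryos treated with BMS493, an inverse agonist of all RA receptors. The comparison rests on the labels alone and takes 6 of the 12 ATAC-seq samples of the series, 3 of each treatment. All embryos came from crosses of Tg(sox17:GFP) fish, in which a sox17 promoter drives GFP in endodermal cells, and stayed in RA, BMS493 or the solvent DMSO from the 2-cell stage on. The RA and BMS493 samples hold GFP+ cells sorted from these embryos when they had 3 somites. Of the other 6 samples, 3 hold GFP+ cells of embryos given DMSO and 3 hold GFP− non-endodermal (NE) cells of embryos given DMSO. They are shown for reference and share the estimate of the spread. No group is free of the transgene or the sort, and the labels do not say whether replicates came from separate clutches, so that p-values measure the spread between these samples only.

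RA is a small lipid made from vitamin A that enters the nucleus and binds the RA receptors (RARs), which sit on DNA with RXR partners. Without ligand, RAR holds co-repressors on its target genes, and with RA these are exchanged for co-activators. BMS493 holds RAR in the co-repressor-bound form. In vertebrate embryos, RA made in the trunk mesoderm patterns the gut tube along the anterior-posterior axis, switches on hox genes and is needed for the pancreas. The same signal induces enzymes that break RA down, so that these genes serve as a readout of the pathway.

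Accessible chromatin was measured by ATAC-seq, in which a transposase cuts DNA that is not covered by nucleosomes, and each sample was represented by the list of peaks that the authors called in it. The RA lists held 116700, 94244 and 83515 peaks, from 26738838, 24744738 and 19177409 total tags. The BMS493 lists held 75611, 115656 and 86750 peaks, from 22118550, 22711208 and 18928561 total tags. Neither the number of peaks (exact two-sided permutation test, p = 0.7) nor the tags (p = 0.4) differed beyond the spread between replicates, and 3 samples against 3 give no p under 0.1. Among the reference samples, DMSO replicate 1 had the shortest list of all with 51301 peaks, and NE replicate 2 the longest with 143755. NE replicates are numbered here as in the labels, from which the numbers inside their files differ. Merging every pair of peaks with at least 1 shared base gave 245646 regions on the Zv9 assembly. Each peak was ranked among the peaks of its own list by its pileup, which counts the extended tags over the summit, as a percentile from 0 to 100. The rank 0 stands for no listed peak and says nothing about signal under the calling threshold.

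The labels of the sorted cells were checked at marker genes. Within 50 kb of the starts of the endodermal markers sox32, gata6, mnx1 and hnf1ba, 6 of 109 regions (5.5%) had a peak in each of the 9 endodermal samples but not in NE, against 0.443% of all regions. These lay near sox32 and hnf1ba, and no region showed the reverse. Near 7 markers of other cells, namely otx2, gbx2, sox21b, isl2a, gata3, gata2a and wnt11, 6 of 210 regions (2.86%) had a peak in all 3 NE samples and in no endodermal one, against 1.4% of all regions, and no region showed the reverse. Genes such as sox17 and foxa2 had no listed position and were not analysed here.

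The 6 lists resembled each other to a large extent. All 6 samples called 40722 of the regions. The Jaccard index, the number of regions shared by 2 lists divided by the number in either, ran from 0.522 to 0.573 for the 3 pairs of RA samples and from 0.501 to 0.554 for the 3 pairs of BMS493 samples. It ran from 0.473 to 0.573 for the 9 pairs of an RA with a BMS493 sample, so that the pairs within and between treatments overlapped.

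Against this background, accessibility differed between the treatments at a small share of regions, mostly with the higher signal in RA. The ranks were compared with limma, a linear model that borrows information on the variance from all regions, over all 12 samples, for the 127026 regions that 3 or more samples called. With p-values adjusted over these regions after Benjamini and Hochberg and a threshold of 0.05, 794 regions ranked higher in RA, 0.625% of those tested, and 167 ranked higher in BMS493, 0.131% of those tested. At an unadjusted p-value under 0.05, the numbers were 7165 and 4406. The RA side made 82.6% of the called regions, whereas the median difference over all tested regions was 0.06 rank points. By presence, without a test, 2988 regions had a peak in every RA sample and none in BMS493, which was 1.75% of the 170930 regions called in any of the 6. The opposite pattern was found for 1418 regions, 0.83% of them.

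The balance between the directions and the number of called regions depended on single samples and on the length of the lists. Without RA replicate 1, limma called 351 regions higher in RA and 422 higher in BMS493. Without RA replicate 2 the numbers were 1 and 7, and without RA replicate 3 they were 1 and 6. They were 5 and 2 without BMS493 replicate 1, 13 and 3 without BMS493 replicate 2, and 6 and 1 without BMS493 replicate 3. With the 6 samples fitted without the others, no region passed in either direction (7003 and 4315 at an unadjusted p-value under 0.05). Lists cut to equal length by −log10(q), at the 51301 peaks of DMSO replicate 1, gave 1702 regions that ranked higher in RA, 2.52% of the 67438 tested. In the opposite direction there were 1068, or 1.58%, and the RA side fell to 61.4%. In such lists, leaving out any 1 of the 6 samples gave 672 to 1344 regions higher in RA and 405 to 1435 higher in BMS493, and the 6 samples fitted without the others gave 550 and 248. The side with more regions turned without RA replicate 1, where BMS493 had 1435 against 1344. Of the 794 regions, 465 (58.6%) were also higher in RA with lists of equal length, and of the 167 regions 129 (77.2%) were also higher in BMS493. They made 27.3% and 12.1% of the called regions of the shorter lists.

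**Figure D1:**
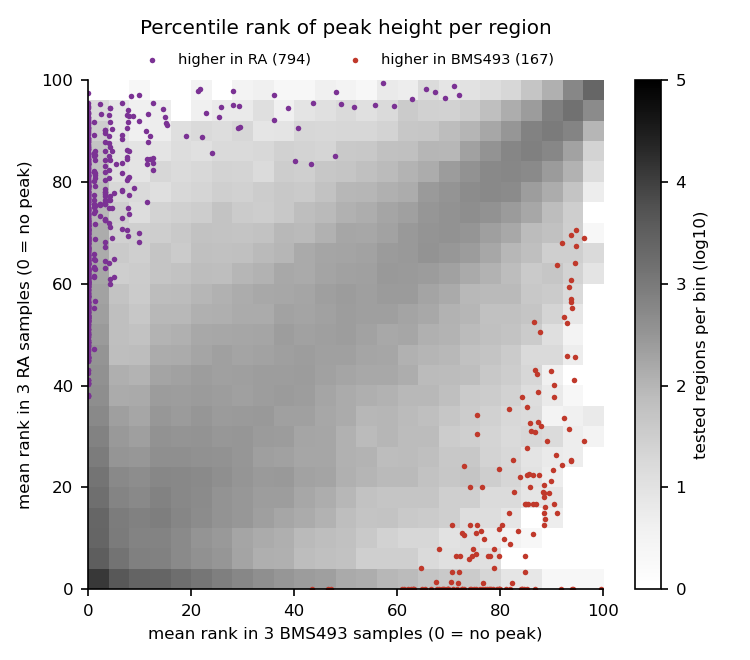
Mean percentile rank of the pileup over the 3 BMS493 samples (horizontal axis) and over the 3 RA samples (vertical axis), with 0 where no sample had a peak. Grey squares give the number of tested regions per bin on a log10 scale, violet points the 794 regions higher in RA and red points the 167 higher in BMS493. Most violet points lie on the left edge, where BMS493 samples had no peak, whereas the red points spread from 0 to middle ranks in RA.

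The regions higher in RA differed in form from those higher in BMS493. Of the 794 regions, 613 (77.2%) had no peak in any BMS493 sample, against 16.2% of all tested regions. Of the 167 regions, 54 (32.3%) had no peak in any RA sample, against 15.7% of all tested regions. All 6 samples called 28 of the 794 regions (3.53%) and 41 of the 167 (24.6%), against 40722 of the 127026 tested. A treatment without any peak adds no spread to the fit, so that such regions pass more easily. The regions higher in RA had a median width of 323.5 bp and those higher in BMS493 of 432 bp, against 311 bp for all tested regions. Where called, the former had a median pileup of 16 tags in RA samples and a median fold enrichment over the local background of 7.16. The latter had a median pileup of 19 tags in BMS493 samples and a median fold enrichment of 8.23. The rank differences ran from 25.1 to 97.6 points, with a median of 68.9, on the RA side, and from −24.1 to −99.5 points, with a median of −67.7, on the BMS493 side. These sizes follow in part from the choice of regions that passed the threshold.

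The regions were spread over the genome, and some of those higher in RA lay near each other. All 25 chromosomes held regions of both directions. The RA side took from 0.315% of the tested regions on chromosome 21 to 0.846% on chromosome 11. Of the 794 regions, 189 (23.8%) had another one within 50 kb, and 23 groups held at least 3. In the other direction 5 of the 167 regions (2.99%) had such a neighbour, in a set that is smaller. The share to be expected for sets of these sizes was not determined. Some neighbours nearly touch and may be parts of the same peak, such as those on chromosome 3 from 13677737 to 13678935 and from 13678987 to 13679345. The longest group held 8 regions over 82148 bp on chromosome 7, from 26391692 to 26473839, upstream of cyp26b1. The next held 5 regions over 13521 bp at dhrs3a on chromosome 23. Of 5 groups of 4, one lay on chromosome 12 among hoxb1b, hoxb5b and skap1, and one spanned 63747 bp on chromosome 10, from 33121835 to 33185581. The only group of 3 on the BMS493 side lay near lgr6, a receptor for R-spondins, on chromosome 23.

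DMSO-treated endodermal cells stood closer to BMS493 than to RA at most of these regions. The mean rank in DMSO was nearer to BMS493 in 728 of the 794 regions higher in RA (91.7%) and in 154 of the 167 regions higher in BMS493 (92.2%), against 54.9% of all tested regions. Among the regions higher in RA, the median of the mean rank was 70.6 in RA, 6.7 in DMSO and 0.0 in BMS493. The DMSO samples were uneven there. DMSO replicate 1, with the shortest list, called 12.8% of these regions and replicates 2 and 3 called 42.7% and 51.5%. Of all tested regions the 3 samples called 36.4%, 72.3% and 76.5%, so that the short list lowers the DMSO mean. Among the regions higher in BMS493, it was 11.1 in RA, 75.7 in DMSO and 81.9 in BMS493. All 3 DMSO samples called 153 of these 167 regions (91.6%) and none called 8 (4.79%). Of the 794 regions, no DMSO sample called 318 (40.1%) and all 3 called 88 (11.1%). Over all tested regions, no DMSO sample called 12.6% and all 3 called 33.4%. DMSO and NE samples also entered the residual of the fit, which is smaller where they agree among themselves, so that such regions pass more easily. Regions chosen by presence, without the fit, showed a smaller preponderance, with DMSO nearer to BMS493 in 84.9% of the 2988 regions of RA and in 72.1% of the 1418 of BMS493.

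Non-endodermal cells differed in how many regions of each set they called. No NE sample called 529 of the 794 regions higher in RA (66.6%), and all 3 called 118 (14.9%). For the 167 regions higher in BMS493 the numbers were 31 (18.6%) and 120 (71.9%). Over all tested regions these shares were 13.4% and 47.9%. No DMSO and no NE sample called 271 of the 794 regions (34.1%), against 1.53% of all tested regions. Such a region was tested only where RA and BMS493 samples gave the 3 calls that the filter required. The dependence of the fit on the agreement of the DMSO and NE samples also raises the share of 34.1%. This contrast is thus in part built in. On the other side, 115 of the 167 regions (68.9%) were called in all 3 DMSO and all 3 NE samples, against 26.6% of all tested regions.

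**Figure D2:**
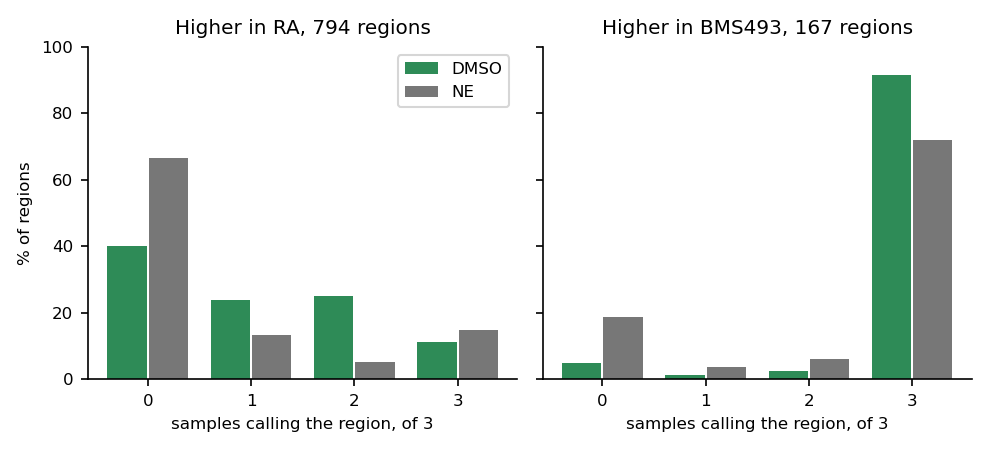
Share of the regions higher in RA (left) and higher in BMS493 (right) that were called in 0, 1, 2 or 3 of the 3 DMSO samples (green) and of the 3 NE samples (grey). On the left the highest bars are at 0 samples, with 40.1% for DMSO and 66.6% for NE, and on the right at 3 samples.

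The 10 regions with the smallest p-values in each direction differed in which group stood alone. Gene positions on Zv9 were taken from 1503 genes that the study lists with RAR sites near RA-regulated genes or with ATAC-seq peaks affected by RA. The study selected those ATAC-seq peaks by comparing RA with BMS493 in these same samples. A gene has a position here only through such a site or peak, and a nearer gene may be missing. The first region higher in RA, on chromosome 3 from 13677737 to 13678935, had ranks of 95.0, 95.4 and 90.8 in RA and no peak in BMS493. It was called in all DMSO and NE samples, with ranks of 78.5 to 86.2 (limma difference 93.7 ± 9.82 SE, adjusted p = 0.00154). The second, on chromosome 11 from 15140076 to 15140768, had the same pattern of calls, as had the third, on chromosome 20 from 24985013 to 24985562. In these 3 regions BMS493 thus stood alone. The third begins 7083 bp downstream of the start of epha7, a receptor of the Eph family that guides cell contacts. Its ranks were 97.4, 78.0 and 78.7 in RA, and its limma adjusted p was 0.0124.

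RA stood alone in 5 of the other 7 regions, which had no peak in any BMS493, DMSO or NE sample. One of them, on chromosome 6 from 36334919 to 36335114, lies 3503 bp upstream of her6, a transcriptional repressor of the hairy family and a target of Notch signalling. Its pileups in the RA samples were 29, 17 and 25 tags and its ranks 89.9, 75.5 and 91.8 (limma difference 85.7 ± 12.8 SE, adjusted p = 0.0207). The fold enrichment of its highest peak was 4.53, the lowest of these 5 regions. More even heights were found on chromosome 3 from 30175252 to 30175595, with pileups of 29, 24 and 24 tags and ranks of 89.9, 88.3 and 90.8. The region on chromosome 9 from 45160490 to 45160878 reached a fold enrichment of 12.12, and that of chromosome 5 from 17687799 to 17688044 one of 10.56. A region on chromosome 12 from 30238763 to 30239155 was graded over the groups. Its ranks were 92.2, 97.3 and 89.6 in RA, 39.4, 51.9 and 69.2 in DMSO, and 0.0, 3.2 and 23.4 in BMS493.

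In the opposite direction, peaks that BMS493, DMSO and NE samples shared were lower or missing in RA at 9 of the 10 regions. A region on chromosome 14 from 36216521 to 36217365 lies 33642 bp downstream of the start of ebf1a, a transcription factor of the EBF family. It had ranks of 89.4, 94.2 and 93.2 in BMS493 and of 44.6, 32.9 and 23.5 in RA (limma difference −58.6 ± 7.20 SE, adjusted p = 0.00763), and the DMSO samples ranked from 77.7 to 95.3. A region on chromosome 3 from 10648919 to 10649328 had ranks of 97.1, 91.4 and 90.1 in BMS493 and of 44.6, 49.2 and 44.0 in RA (adjusted p = 0.0134). Both were called in every sample. A region 27930 bp upstream of flrt3, a membrane protein that modulates FGF signalling, had ranks of 75.8, 81.4 and 79.1 in BMS493 and of 0.0, 0.0 and 12.3 in RA (limma adjusted p = 0.0207). The remaining 5 regions on chromosomes were called in all BMS493, DMSO and NE samples, and in 4 of them RA replicate 1 was the only RA sample with a peak.

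The other 2 regions of this side lie on unplaced scaffolds. The region with the smallest p-value of all, on Zv9_NA126 from 39305 to 39670, had pileups of 59, 47 and 51 tags in BMS493 and no peak in RA, with a peak in all DMSO and NE samples (limma adjusted p = 2.75e-06). Its fold enrichment was at most 2.18, so that its local background was also high, and it was not tested in lists of equal length. When −log10(q) was ranked in place of the pileup, its limma difference was −25.8 ± 14.6 SE (adjusted p = 0.689). A region on Zv9_NA219 from 97929 to 98145 had peaks in BMS493 alone, in all 3 samples, with a fold enrichment of at most 3.38. It too was not tested in lists of equal length, nor was the region near her6, whereas the other 17 regions were tested there and passed.

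**Figure D3:**
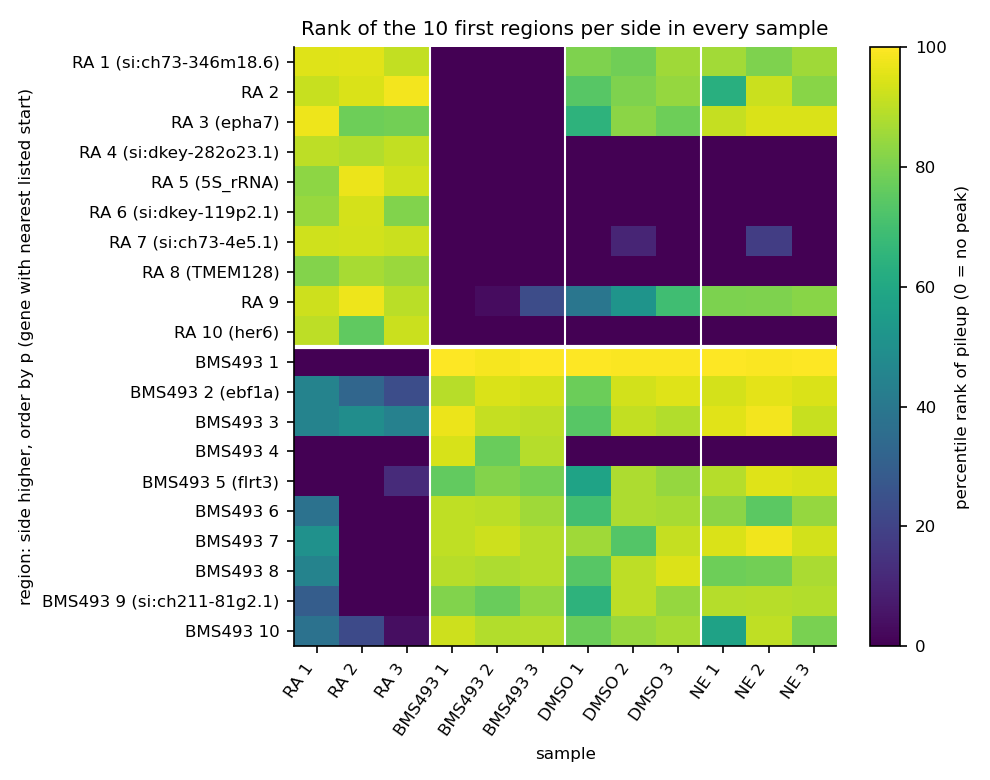
Percentile rank of the pileup in each of the 12 samples (columns) for the 10 regions with the smallest p-values in each direction (rows), with the listed gene whose start is nearest within 50 kb. Dark cells mark samples without a peak. In the upper block the BMS493 columns are dark or, in 1 region, dim, in the lower block the RA columns are dark or dim, and the DMSO and NE columns differ from row to row.

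Genes that make, store or break down RA were considered first. The 5 genes with a position were cyp26a1 and cyp26b1, which encode enzymes that degrade RA, dhrs3a and dhrs3b, which encode reductases that turn retinaldehyde back to retinol, and aldh1a2, which encodes the enzyme that makes RA. Of the 84 tested regions within 50 kb of their starts, 13 (15.5%) ranked higher in RA, against 0.625% of all regions, and none higher in BMS493. The median difference was 16.64 rank points, against 0.06 over all regions. All 5 genes had at least 1 region higher in RA. In lists of equal length, 16 of 53 regions (30.2%, against 2.52% of all) ranked higher in RA and 1, near dhrs3b, higher in BMS493. When −log10(q) was ranked in place of the pileup, 5 of the 84 regions (5.95%, against 0.409% of all) did, and dhrs3b and aldh1a2 had none. This list and the following ones were put together with results of these treatments known, and many genes are in them because the study found them regulated by RA. Each gene also has a position only through an RAR site near an RA-regulated gene or a peak that the study found to differ between RA and BMS493. A share above that of all regions is thus in part built in for each of these lists and is no test of its genes. Since nearly every call in the full lists was lost when RA replicate 2 or 3 or any BMS493 sample was left out, the calls at single genes depend on these samples too.

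At cyp26b1, 4 of 15 tested regions ranked higher in RA. The region 23042 bp downstream of the nearest of its listed starts, on chromosome 7 from 26534696 to 26535078, overlapped an RAR site. It had ranks of 91.5, 92.2 and 81.1 in RA. No BMS493 or NE sample and 1 DMSO sample had a peak there (limma difference 88.3 ± 13.7 SE, adjusted p = 0.0207). The region 17000 bp upstream had ranks of 96.6, 93.0 and 85.1 in RA and of 0.0, 45.2 and 0.0 in BMS493, and NE samples ranked it from 82.1 to 94.2. The RA samples were thus above every BMS493 sample at both, whereas NE cells had a peak at the second alone. The remaining 2 regions lay 47514 and 39356 bp upstream and had no peak in BMS493. In lists of equal length, 6 of its 9 tested regions ranked higher in RA.

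At dhrs3a, 5 of 14 tested regions ranked higher in RA, and all 5 began at its start or at most 12727 bp downstream of it. The region at the start itself, on chromosome 23 from 21957603 to 21958163, had ranks of 87.0, 72.6 and 78.7 in RA and of 27.1, 45.7 and 60.9 in DMSO (limma difference 79.4 ± 16.1 SE, adjusted p = 0.0307). No BMS493 sample had a peak there, so that DMSO lay between the treatments. The region 3758 bp downstream had ranks of 97.1, 93.0 and 85.1 in RA, of 0.0, 51.9 and 60.9 in DMSO and of 0.0, 3.2 and 0.0 in BMS493. At 3 of the 5 regions an RAR site was present. The region 12094 bp downstream was called in RA samples alone, with pileups of 15, 13 and 11 tags. It ends at 21970481, and the next of the 5 regions begins at 21970500. That region also had a peak in 1 BMS493, 2 DMSO and 1 NE sample, so that these neighbours may not be separate elements.

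The other 3 genes had fewer such regions. At cyp26a1, 2 of 18 tested regions ranked higher in RA, and one of them, 33293 bp downstream of the start, was called in every sample. Its ranks were 89.9, 88.3 and 72.5 in RA and 35.0, 51.3 and 43.7 in BMS493 (limma difference 40.2 ± 8.88 SE, adjusted p = 0.0434). A peak that was present in all samples thus differed in height. The region of aldh1a2, 6318 bp downstream of its start, was also called in all samples, with ranks of 94.5, 94.8 and 94.9 in RA and of 35.0, 51.3 and 68.8 in BMS493 (adjusted p = 0.0366). At dhrs3b, 1 of 22 regions passed, with ranks of 67.4, 41.7 and 63.9 in RA and no peak in BMS493.

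**Figure D4:**
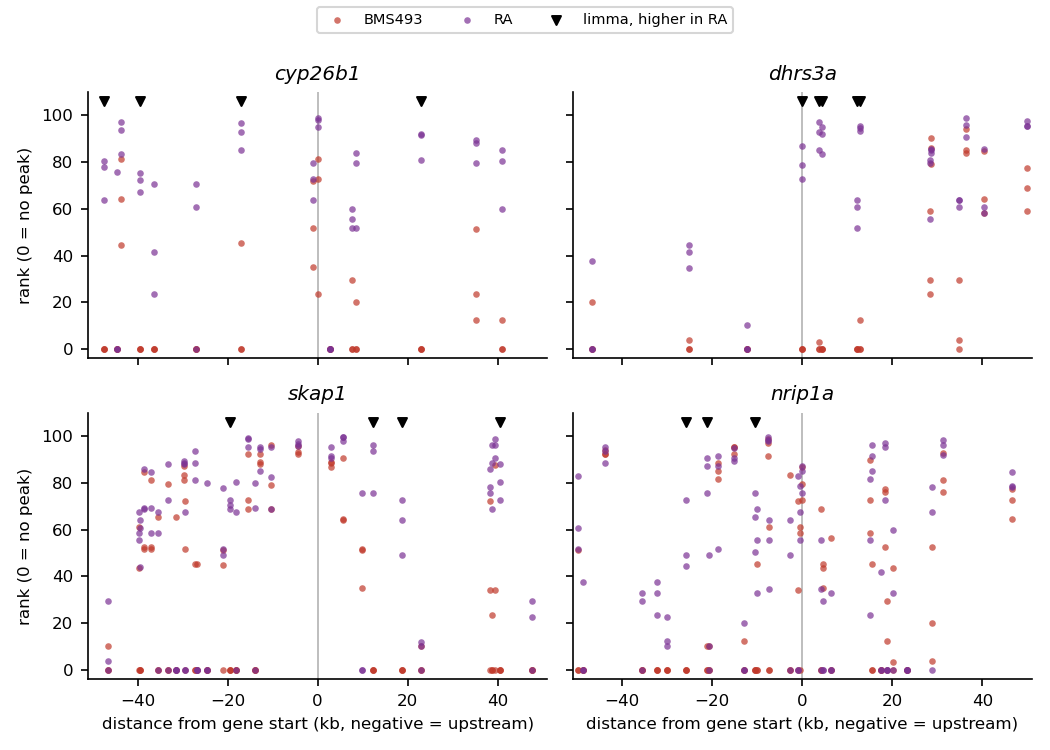
Percentile rank of each tested region against its distance from the gene start in kb (negative is upstream) at cyp26b1, dhrs3a, skap1 and nrip1a, with 1 point per sample for RA (violet) and BMS493 (red). Black triangles mark the 4, 5, 4 and 3 regions that ranked higher in RA by limma. For genes with several listed starts, the distance is that from the nearest one. At dhrs3a the marked regions lie from 0 to 12727 bp downstream of the start. At nrip1a they lie upstream of the nearest start, though 1 of them lies downstream of the other listed start, and at the other genes on both sides.

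Hox genes, which set the position of cells along the body axis, and the homeobox cofactors of the Meis family formed the next list, together with skap1, an adaptor gene beside the hoxb genes of chromosome 12. Of 250 tested regions near the 16 genes, 11 (4.4%, against 0.625% of all regions) ranked higher in RA and none higher in BMS493. The median difference was 8.74 rank points. Near 8 of the 16 genes at least 1 region passed. Neighbouring hox genes share regions, and each region was counted once. Shortened to equal length, the lists gave 23 of 159 regions higher in RA (14.5%, against 2.52% of all), and every one of the 16 genes had at least 1 region higher in RA, while 1 region, near meis2b, was higher in BMS493. With ranks of −log10(q), 5 of the 250 regions (2.0%, against 0.409% of all) passed, near 5 of the 16 genes, and none was higher in BMS493.

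At the hoxb1b, hoxb5b and skap1 genes, 4 regions passed. The one 28179 bp downstream of the start of hoxb1b, on chromosome 12 from 28740350 to 28740716, overlapped an RAR site and lies 12324 bp downstream of the start of skap1. Its ranks were 93.4, 96.3 and 75.8 in RA, 0.0, 20.2 and 55.7 in DMSO and 0.0 in every BMS493 sample (limma difference 88.5 ± 18.9 SE, adjusted p = 0.0387). The DMSO samples were thus spread from no peak to a middle rank. The region 40457 bp downstream of the start of skap1 had ranks of 88.1, 80.3 and 72.5 in RA and no peak in BMS493 (adjusted p = 0.0304).

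At hoxb1a, the region 34029 bp downstream of its start had ranks of 81.5, 85.6 and 78.7 in RA, with no peak in BMS493 or NE and a rank of 11.9 in DMSO replicate 3 (limma difference 81.9 ± 12.8 SE, adjusted p = 0.0207). A region 16769 bp downstream ranked higher in RA as well but was highest in NE cells, at 94.4, 96.8 and 94.5. The hoxc genes had a peak at the start of hoxc1a, with ranks of 77.8, 82.3 and 78.7 in RA and no peak in BMS493 or DMSO (adjusted p = 0.0309). A region 7632 bp upstream of hoxc4a, with ranks of 70.5, 78.0 and 58.4, had peaks in RA alone (adjusted p = 0.0221). By presence, the hoxc genes held the longest group of neighbours of RA, with 9 regions over 106955 bp that all RA samples and no BMS493 sample called.

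At meis3, a region 22761 bp upstream was called in all 12 samples and still differed in height. Its ranks were 99.2, 96.7 and 93.5 in RA and 78.6, 65.2 and 64.0 in BMS493 (limma difference 27.2 ± 5.29 SE, adjusted p = 0.0269). Regions near hoxa1a, hoxa3a, hoxa5a, hoxb4a, hoxb6a, hoxb7a, meis1 and meis2b did not pass in the full lists. The closest was a region shared by hoxb4a, hoxb6a and hoxb7a, 1380 bp downstream of the start of hoxb6a, with ranks of 90.7, 84.0 and 78.7 in RA and no peak in BMS493 (adjusted p = 0.0515, and 0.0173 with lists of equal length). Its ranks in DMSO were 0.0, 78.5 and 85.6, so that DMSO replicates 2 and 3 were about as high as RA. Next was a region 5655 bp downstream of the start of hoxa1a, with ranks of 94.5, 94.3 and 91.8 in RA and of 23.9, 65.2 and 43.7 in BMS493 (adjusted p = 0.0517, and 0.00183 with lists of equal length).

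Near nuclear receptors and their coregulators, 4 of 209 tested regions at 11 genes ranked higher in RA (1.91%, against 0.625% of all regions) and 1 higher in BMS493 (0.478%, against 0.131%), with a median difference of 3.39. With ranks of −log10(q), 1 region (0.478%) passed in each direction, near raraa and esrrgb, against 0.409% and 0.101% of all. In lists of equal length, 8 of 131 regions ranked higher in RA (6.11%, against 2.52% of all) and 2 higher in BMS493 (1.53%, against 1.58%). The region 3915 bp upstream of nr2f6b, an orphan receptor of the COUP-TF family, had ranks of 79.8, 88.3 and 83.3 in RA and no peak in BMS493 or DMSO (limma adjusted p = 0.0208). NE cells ranked it at 67.7, 74.8 and 70.0. No region near nr2f6b ranked higher in RA in lists of equal length (13 tested) or with ranks of −log10(q) (18 tested). With the log2 of the pileup scaled to the filtered tags, 1 did. At nrip1a, whose mammalian counterpart encodes a coregulator of ligand-bound nuclear receptors, 3 of 33 regions passed, and 2 of them were called in RA samples alone. None of the 33 passed with ranks of −log10(q), and in lists of equal length 2 of 19 ranked higher in RA. The opposite direction was found at esrrgb, an estrogen-related orphan receptor, 3282 bp upstream of its start. Ranks there were 85.0, 88.6 and 79.1 in BMS493 and 77.7, 78.5 and 88.3 in DMSO, with no peak in RA or NE (limma difference −84.2 ± 14.3 SE, adjusted p = 0.0208). All endodermal samples without added RA thus had this peak. No region near the RAR genes raraa and rarab passed in the full lists, with the smallest limma adjusted p at 0.0706 and 0.107. Near raraa, 1 region ranked higher in RA in lists of equal length and with ranks of −log10(q). The same number was higher with the log2 of the pileup scaled to the filtered tags. Near rarab, 1 region did so in lists of equal length.

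Regulators of endoderm and pancreas were represented by 9 genes with a position. Of 155 tested regions, 4 (2.58%, against 0.625% of all regions) ranked higher in RA and 1 (0.645%, against 0.131%) higher in BMS493. The median difference was 2.55. The counts were 2 and 1 with ranks of −log10(q) (1.29% and 0.645%, against 0.409% and 0.101% of all). At mnx1, a homeobox gene needed for beta cells in zebrafish, regions 41485 and 43220 bp upstream passed. The former had ranks of 75.6, 65.3 and 72.5 in RA and 0.0, 45.7 and 42.2 in DMSO, and no peak in BMS493 (limma difference 71.1 ± 15.1 SE, adjusted p = 0.0370). The related gene mnx2a had a region 5215 bp upstream with ranks of 70.5, 82.3 and 72.5 in RA and no peak in BMS493 (adjusted p = 0.0279), and NE cells also called it. At sox32, which is needed to form endoderm in zebrafish, a region 15871 bp downstream of the start had ranks of 83.1, 87.0 and 72.5 in RA and of 0.0, 0.0 and 23.4 in BMS493 (adjusted p = 0.0395). Near jag2b, which encodes a Notch ligand, a region with an RAR site was higher in BMS493, with ranks of 75.8, 91.4 and 85.7 against 67.4, 22.6 and 23.5 in RA (adjusted p = 0.0395). RA replicate 1 lay close to the lowest BMS493 sample there.

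No region near gata6, hnf1ba, hnf1bb, insm1b or ascl1b passed in the full lists. At gata6, a zinc-finger factor of the endoderm, 17 of 23 tested regions had a positive difference. Near all 9 genes of the list, 87 of 155 (56.1%) did, against 50.4% of all tested regions. The region with the smallest p-value, 6778 bp upstream, had ranks of 63.9, 41.7 and 34.6 in RA and no peak in BMS493 or NE (adjusted p = 0.0613). At hnf1ba the first region had ranks of 85.8, 65.3 and 34.6 in RA and no peak in BMS493 (adjusted p = 0.169). In the shortened lists, 11 of the 105 tested regions of the list ranked higher in RA (10.5%, against 2.52% of all) and 3 higher in BMS493 (2.86%, against 1.58%). Of these, 3 of the former and 1 of the latter lay near gata6.

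Further genes that move with RA had 10 of 149 tested regions higher in RA (6.71%, against 0.625% of all regions). They had 1 higher in BMS493 (0.671%, against 0.131%), and the median difference was 9.29. This list too was chosen with earlier results of these data known, so that its shares are not independent of the regions counted. The counts were 6 and 1 with ranks of −log10(q) (4.03% and 0.671%, against 0.409% and 0.101% of all). A region 1434 bp upstream of znf503, a zinc-finger gene, had ranks of 95.5, 94.3 and 88.3 in RA and no peak in BMS493 or DMSO, while NE cells ranked it at 67.7, 83.8 and 77.0 (limma difference 92.7 ± 14.3 SE, adjusted p = 0.0207). A region 1104 bp downstream of the start of skila, a co-repressor of TGF-β signalling, had the same pattern, with ranks of 93.4, 93.0 and 75.8 in RA. Both thus had a peak in RA-treated endoderm and in non-endodermal cells. The homeobox gene mxtx1 showed the reverse relation to NE. Its region 1591 bp downstream of the start had ranks of 93.4, 94.8 and 90.8 in RA, of 64.5, 57.4 and 72.6 in DMSO and of 23.9, 0.0 and 0.0 in BMS493, and no peak in NE (adjusted p = 0.0221).

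At tshz1, a zinc-finger gene of the teashirt family, 2 regions passed. The one 17900 bp downstream of a listed start was called in all samples, with ranks of 98.6, 97.6 and 95.5 in RA and of 68.8, 74.8 and 72.8 in BMS493 (limma difference 25.1 ± 4.73 SE, adjusted p = 0.0256). The other, at an RAR site, lay downstream of that start as well but upstream of the gene's other listed start, and had no peak in BMS493. At lgals2b, a galectin gene, 2 regions passed, at the start and 575 bp downstream of it, with ranks of 44.0 to 63.9 in RA and no peak in BMS493. A region 31475 bp downstream of the start of foxg1b, a forkhead gene, was higher in BMS493, at 75.8, 74.8 and 76.2 against 37.6, 0.0 and 0.0 in RA (adjusted p = 0.0269). At col7a1l, a collagen-like gene, regions 21979 and 21265 bp upstream passed, the first of them at an RAR site. No region near SLC22A3, pcdh10a or ppm1h passed in the full lists. In lists of equal length, 1 of 8 tested regions near pcdh10a ranked higher in RA, and none near the other genes.

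The direction of the medians of all 5 lists was the same when −log10(q) was ranked, when the lists had equal length and when the log2 of the pileup scaled to the filtered tags was fitted. The medians of RA metabolism were then 13.83 and 11.44 rank points and 0.39 on the log2 scale, against 0.08, 0.0 and 0.08 over all tested regions. On the log2 scale, the only region of the 5 lists higher in BMS493 lay near esrrgb, and those near jag2b and foxg1b did not pass.

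Loci of the marker genes were counted in the same way, to show what moved with the treatment there. These genes too have a position only through such an RAR site or a peak that differed between RA and BMS493 in the study. Their shares against all regions are thus in part built in and do not describe endodermal or other loci in general. Near the 4 endodermal markers, 3 of 81 tested regions ranked higher in RA (3.7%, against 0.625% of all regions) and none higher in BMS493. Near the 7 markers of other cells, none of 136 ranked higher in RA and 1 (0.735%, against 0.131% of all) higher in BMS493. It lies 8459 bp downstream of the start of gbx2, with ranks of 91.5, 97.5 and 92.3 in BMS493 and of 77.8, 41.7 and 51.8 in RA (limma adjusted p = 0.0278). The median difference was 4.75 for the first list and −0.21 for the second. In lists of equal length, 7 of 58 regions of the first list ranked higher in RA (12.1%, against 2.52% of all) and 2 higher in BMS493 (3.45%, against 1.58%). The second list then had a median of −3.39, with 1 of 82 regions higher in RA (1.22%, against 2.52%) and 5 higher in BMS493 (6.1%, against 1.58%). On the log2 scale the median of the second list was 0.0 and none of its regions passed. Peaks are not expression, and the part of admixed cells in the differences was not tested. A change in the share of cells with an open region and a change in its openness per cell cannot be told apart in bulk samples.

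Sites bound by RAR in the study's ChIP-seq of zebrafish embryos at the end of gastrulation were then examined. These sites come from another assay, in embryos injected with mRNA for a tagged RARaa and given RA for the last hour. They were thus mapped under added RA and are not neutral between the treatments. Those used here were also listed near genes that the study found regulated by RA. The study assigns 194 such sites to 93 genes that RA raised and 82 sites to 61 genes that RA lowered in endodermal cells. Of the 194 sites, the RA samples called 168, 166 and 148 and the BMS493 samples 114, 135 and 114. The means were 161 ± 11.0 and 121 ± 12.1 (SD, n = 3), and the groups did not overlap, with a difference of 39.7 sites (exact two-sided permutation test, p = 0.1, the smallest that 3 samples against 3 can give). BMS493 replicate 2 had fewer of these sites than every RA sample, and its list was longer than those of RA replicates 2 and 3. The DMSO samples called 101, 145 and 155 sites and the NE samples 123, 148 and 134, so that the groups of RA and DMSO overlapped. In lists of equal length, the numbers were 143, 147 and 130 in RA, 101, 111 and 110 in DMSO and 90, 101 and 88 in BMS493, and the lowest DMSO sample then equalled the highest BMS493 sample.

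Of the 82 sites near genes that RA lowered, the RA samples called 58, 50 and 48 and the BMS493 samples 42, 51 and 44. The means of 52.0 ± 5.29 and 45.7 ± 4.73 (SD, n = 3) did not differ beyond the spread between replicates (exact two-sided permutation test, p = 0.3). The difference between RA and BMS493 was not tested between the 2 sets of sites.

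**Figure D5:**
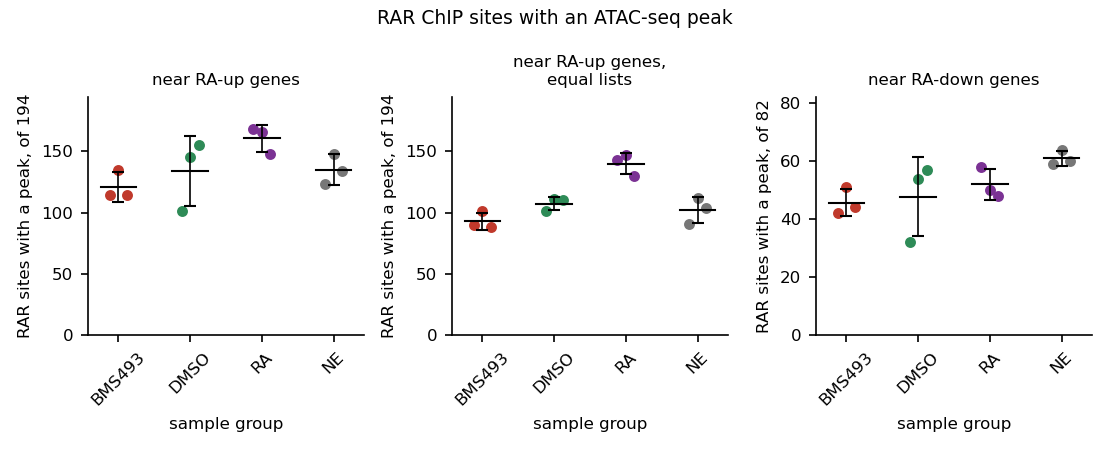
Number of RAR sites with a peak in each sample, for sites near genes raised by RA in the full lists (left) and in lists of equal length (middle) and near genes lowered by RA (right). Points are samples, horizontal lines the mean and error bars the SD of 3 samples. For genes raised by RA, the 3 RA samples lie above the 3 BMS493 samples in both panels.

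Over regions, 22 of the 166 tested regions with an RAR site near a gene that RA raised ranked higher in RA (13.3%, against 0.625% of all regions) and 1 higher in BMS493, that of jag2b. A positive difference was seen in 149 of the 166 (89.8%, against 50.4% of all tested regions), with a median of 20.3 rank points against 0.06. All 6 samples called 97 of the 180 regions that hold these sites, against 40722 of all 245646 regions. Among the 66 tested regions near genes that RA lowered, 1 passed (1.52%, against 0.625% of all), 16875 bp upstream of fscn2b, with the higher rank in RA. It was called in all samples, with ranks of 97.7, 98.7 and 97.5 in RA and of 23.9, 56.5 and 3.8 in BMS493 (limma adjusted p = 0.0244).

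The 22 regions belonged to genes of several kinds. Of them, 3 lie at cyp26b1, 3 at dhrs3a and 1 each at cyp26a1, skap1 and tshz1. The largest difference after that of tshz1 was at zgc:158309, with ranks of 89.0, 90.5 and 95.5 in RA and no peak in BMS493 (limma adjusted p = 0.0208), and its DMSO ranks of 27.1, 73.1 and 82.2 lay between. At gria3a, which encodes a subunit of glutamate receptors, the region lies 49 bp upstream of the start, with ranks of 91.5, 92.2 and 88.3 in RA and of 12.5, 10.3 and 0.0 in BMS493 (adjusted p = 0.0468). A region upstream of fgg, a fibrinogen gene, was called in RA alone, with ranks of 60.0, 60.8 and 34.6. At ror1, a receptor for Wnt5a, the region was called in all 12 samples, with ranks of 98.2, 97.0 and 89.6 in RA and of 35.0, 29.6 and 23.4 in BMS493 (adjusted p = 0.0232). The 22 regions thus included peaks that were absent in BMS493 and peaks that were present and lower.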

How the data were processed

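ATAC-seq peak lists of 12 samples were used, grouped by their labels. The authors aligned the reads to Zv9 with Bowtie2 and ran MACS2 2.1.1.20160309 on each sample without a control (shift of 40 bp, extension of 80 bp, q-value below 0.05, 1 tag per position). Pileup, as deposited, is a signal that the authors did not scale between samples, and with 1 tag per position it cannot exceed 160. The deposited fold enrichment is a ratio to the local background, and its p-value and q-value are deposited as −log10. Signal under the threshold is not listed, so that depth limits what a missing peak means.

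Peaks were merged and ranked in Python 3.11.15 (pandas 2.3.3, numpy 2.4.6, scipy 1.17.1), and regions were checked against bedtools 2.31.1. Ranks were fitted with limma 3.58.1 in R 4.3.3 (trend and robust options, Benjamini-Hochberg adjustment over all regions tested), and figures were drawn with matplotlib 3.10.9. The steps were run on simulated heights with known changes and an assumed noise. That run does not measure error rates in these lists. The named regions are the 10 with the smallest limma p per direction, and at each listed gene the regions within 50 kb of a start, 51 genes in 5 lists and 7 further marker genes. RAR sites on Zv9 came from the study's list of those near RA-regulated genes. Gene positions came from that list and from the study's ATAC-seq peaks that differed between RA and BMS493. Genes without a position there were not analysed here. No sequences are shown, since no Zv9 genome was used. The members and lists were chosen with earlier results of these data known. Regions named in addition, because of groups or RAR sites, were chosen after their values were seen.

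The alternatives tried were lists of equal length, peaks with a −log10(q) of 3 or more, merging within 100 bp, a cover of 50% of the region for a call, the placed chromosomes alone, no filter, ranks of −log10(q), the log2 of the pileup scaled to the filtered tags with a pseudocount of 0.5, the 6 samples alone, the replicate number as a block, neither option of the empirical Bayes step, and leaving out each RA and BMS493 sample. Leaving out DMSO replicate 1 or NE replicate 2, and combining lists of equal length with leaving out a sample or with the 6 samples alone, were added after seeing the data.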

Additional observations from a re-analysis of the deposited data

How the results depend on the processing

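By limma, the RA side stayed larger in every setting except without RA replicate 1, 2 or 3 and without RA replicate 1 in lists of equal length, and with the 6 samples alone, where the limma counts were 0 and 0. The limma counts higher in RA and in BMS493 were 1702 and 1068 with lists of equal length, 173 and 55 without a filter, 379 and 76 with the replicate block, 1663 and 372 with neither empirical Bayes option, 1333 and 499 without DMSO replicate 1 and 204 and 51 without NE replicate 2. Ranks of −log10(q) gave 519 higher in RA. Higher in BMS493 were 58 regions when a call required a cover of 50% (RA side 93.1%) and 109 with the log2 of the scaled pileup. Leaving out 1 RA or BMS493 sample gave 1 to 351 and 1 to 422. With lists of equal length, it gave 672 to 1344 higher in RA, and higher in BMS493 1435, 405 and 455 without RA replicates 1, 2 and 3 and 701, 736 and 643 without BMS493 replicates 1, 2 and 3. By presence, lists of equal length gave 1839 regions in RA (RA side 55.8%), and leaving out 1 sample gave 3506 to 5983 in RA and 1732 to 3966 in BMS493, with fewer samples required. Without BMS493 replicate 1 the BMS493 side was larger by presence, with 3966 against 3506. The cause of these shifts was not tested. Same-numbered samples deviated from their group means with correlations of −0.143, −0.0436 and 0.0725, and RA replicate 1 correlated best with BMS493 replicate 2, so that the numbers were not taken as pairs. The difference in RAR sites ranged from 36.0 to 47.0. Single regions and genes were followed in 11 settings (equal length, ranks of −log10(q), the 6 samples alone, the block, neither empirical Bayes option and the 6 single-sample omissions), where each was tested in them, and none turned. At each gene this was the region with its smallest p-value. Because the regions were picked by p-values from these same samples, a turn was unlikely from the start. Its absence is thus no support for the direction. The 20 named regions kept the call 111 times and lost it 88 times. The gene loci kept their state 372 times, lost the call 196 times and gained it 31 times, with shared regions counted under each gene. Depth limits every missing peak.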
